A study of Mus musculus with 2 samples.

Results

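The LTRs described here are 550 copies of the IAPLTR1_Mm subfamily that stand without a same-strand partner of their own subfamily, out of 912 IAPLTR1_Mm copies and 4799 measured LTR loci in all. Loci were sorted by position, and consecutive loci of equal subfamily and strand with 1000 to 8000 bp between them were taken as a pair, each locus being used once. Copies left over are called unpaired, and no methylation value entered that choice. Levels came from genomic DNA of cultured AB2.2 embryonic stem (ES) cells, whose strain is given as 129, and of Neuro2A brain neuroblastoma cells, whose strain is given as A albino. Each line gave 1 library from cell stock, with no treatment, time course or genetic change named in the labels. The somatic cells that the series' design also names were not analysed here. With 1 library per line, nothing below has a replicate check, no difference between the lines or between classes of loci was tested, and the read depth behind each level is unknown. Intervals and SDs given below are over loci and hold no experimental error. Coordinates are on mm9, and where a pair of levels is given without naming the lines, the ES level comes before the Neuro2A level.

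Intracisternal A particles (IAPs) are endogenous retroviruses of the mouse, and a full copy carries a long terminal repeat (LTR) at either end. The upstream LTR holds the promoter that drives the copy, while recombination between the ends removes the internal part and leaves a solitary LTR in the genome. CpG methylation is a main means by which these promoters are kept silent, and single IAP copies that escape it are known to act on neighbouring genes. An unpaired locus in this list need not be a solitary LTR, since its partner could have another subfamily name or be absent from the 4799 measured loci. The lines differ in strain, and whether both genomes hold every copy was not tested.

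Unpaired IAPLTR1_Mm LTRs were densely methylated in both libraries, and most copies had nearly the same level. Their median level was 91.9% in ES cells (exact binomial interval of the median over loci 91.6 to 92.1) and 86.8% in Neuro2A cells (86.6 to 87.0). The middle 50% of copies lay between 90.3 and 92.9% in ES cells and between 84.7 and 88.3% in Neuro2A cells. This is a width of 2.6 and 3.6 points, where all 4799 loci had widths of 10.7 and 18.3 points around medians of 86.7 and 80.6%. Single copies ran from 53.1 to 95.9% in ES and from 37.3 to 98.9% in Neuro2A cells. No copy was under 20% in either line (exact interval over loci up to 0.67%). Among all loci 2 (0.04%) were under 20% in ES and 47 (0.98%) in Neuro2A cells. The ES share of all loci lies inside that interval, so the ES counts show no contrast.

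In ES cells 538 copies (97.8%, exact Clopper-Pearson interval over loci 96.2 to 98.9) were at 80% or above, a level reached by 76.9% of all loci. In Neuro2A cells 511 copies (92.9%, interval 90.4 to 94.9) reached 80%, against 51.4% of all loci. At a stricter limit of 90% the lines parted. ES cells had 429 copies there (78.0%, with 32.7% of all loci), while Neuro2A cells had 45 (8.18%, with 13.3% of all loci). At that limit the Neuro2A share of these copies was thus below the share of all loci, and the ES share above it. Levels of 95% or more were found at 7 copies in ES cells (1.27%, with 1.08% of all loci) and at 5 in Neuro2A cells (0.91%, with 4.88% of all loci).

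**Figure D1:**
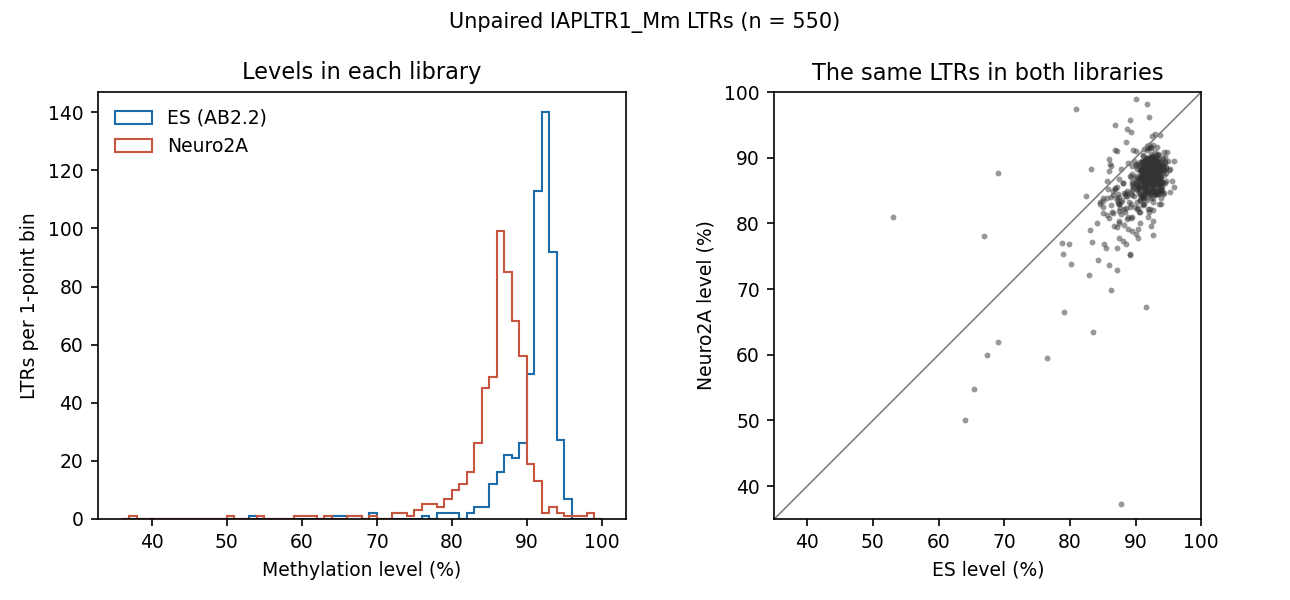
Methylation levels of the 550 unpaired IAPLTR1_Mm LTRs: on the left the number of LTRs per 1-point bin of level (%) in each library, on the right each LTR's Neuro2A level against its ES level (%), with the line of equality. The ES histogram centres on the median of 91.9% and the Neuro2A histogram on 86.8%, and a single point lies at 87.8% in ES and 37.3% in Neuro2A cells.

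Between the lines, 521 copies (94.7%, interval 92.5 to 96.4) had their higher level in ES cells, 27 had it in Neuro2A cells and 2 had equal levels. Among all loci 81.4% were higher in ES and 18.4% in Neuro2A cells. The median ES minus Neuro2A difference was 5.0 points (interval 4.7 to 5.3), and the quartiles were 3.3 and 6.7 points. All loci had a median difference of 6.1 points. When the median over all loci was subtracted from each library, which removes those 6.1 points, the median difference of these copies became -1.1 points and 32.5% of them were higher in ES cells. The direction of the shift therefore holds for levels as deposited and turns when it is read relative to all IAP LTRs.

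Expressed as the part that is not methylated, the median was 8.1% in ES and 13.2% in Neuro2A cells. The ratio of Neuro2A to ES within a copy had a median of 1.61, with quartiles of 1.36 and 1.87. Over the 4798 loci that allow this ratio the median was 1.52, with quartiles of 1.14 and 2.02.

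Large differences were few. The ES level was higher by 20 points or more at 3 copies (0.55%, interval 0.11 to 1.59), against 14.9% of all loci. The Neuro2A level was higher by that much at 1 copy (0.18%), against 1.58% of all loci. After centring, these counts were 1 and 3. At a limit of 10 points the counts were 32 in favour of ES cells (5.82%, with 32.3% of all loci) and 4 in favour of Neuro2A cells (0.73%, with 5.73% of all loci). Differences from 0 to under 10 points took in 491 copies, or 89.3%, against 49.4% of all loci.

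The largest difference belonged to a copy on the minus strand of chromosome 2 (70108476 to 70108846, mm9, 371 bp), at 87.8% in ES and 37.3% in Neuro2A cells. It was the sole unpaired IAPLTR1_Mm copy under 40% in Neuro2A cells (0.18%), where 219 of all loci (4.56%) were. Its nearest measured neighbour, an IAPLTR2a copy 4474 bp downstream on the same strand, had 92.3% and 80.3%, so the neighbour did not share the low Neuro2A level. The next copy, on the X chromosome (41453973 to 41454325, minus strand), had 91.6% in ES and 67.2% in Neuro2A cells. There the nearest locus was an IAPLTR1a_Mm copy 83745 bp away, which had 76.3% and 43.2% and was thus lower than this copy in both libraries. On chromosome 16 (15196247 to 15196628, plus strand) a copy at 83.5% in ES cells had 63.5% in Neuro2A cells, exactly at the limit of 20 points.

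The remaining 7 of the 10 largest ES excesses measured 13.8 to 17.0 points. A copy on chromosome 9 (123099958 to 123100313, minus strand) had 76.5% in ES and 59.5% in Neuro2A cells, and one on chromosome 3 (13821264 to 13821653, minus strand) had 86.2 and 69.8%. Plus-strand copies followed on chromosome 2 (151037425 to 151037777), at 92.7% in ES and 78.2% in Neuro2A cells, and on chromosome 17 (90341656 to 90342032), at 87.2 and 72.9%. Further plus-strand copies were found on chromosome 1 (196480018 to 196480384), at 89.2 and 75.2%, and on chromosome 13 (77749942 to 77750373), at 89.1 and 75.3%, and the last of the 10, on chromosome 3, is described with the lowest copies. Of the 10, 7 had an ES level of 86.2% or more, above percentile 5 of the 550 copies (85.1%).

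The reverse difference was largest at the shortest LTR of the set. This 98 bp fragment on the X chromosome (145348688 to 145348785, minus strand) had 53.1% in ES cells, the lowest ES level of all 550, and 80.9% in Neuro2A cells. Every other copy was at least 335 bp long. A copy on chromosome 1 (165623099 to 165623467, minus strand) had 69.1% in ES cells against 87.7% in Neuro2A cells, and one on chromosome 16 (11013516 to 11013883, minus strand) had 80.9 against 97.4%. On chromosome 11 (109591496 to 109591884, minus strand) the levels were 66.9 and 78.1%, and on chromosome 19 (33447890 to 33448272, minus strand) 90% and 98.9%. All 5 were minus-strand copies, a class of 289 among the 550. Of these 5 copies, 3 were under 70% in ES cells, and the copy on chromosome 19 had the highest Neuro2A level of the set.

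Some copies were low in both libraries. Levels under 80% were found at 12 copies in ES cells and at 39 in Neuro2A cells, and 10 copies were in both lists, which is 10 of the 12 and 10 of the 39. Among all loci 18.9% were under 80% in both lines, and here 1.82%. Over all loci that was 906 of the 1110 under 80% in ES cells and of the 2334 in Neuro2A cells. The overlap here was thus close to that of all loci for the ES list and smaller for the Neuro2A list. A copy on chromosome 3 (69441862 to 69442230, minus strand) had 64.0% in ES and 50.1% in Neuro2A cells. The nearest locus, an IAPLTR1a_Mm copy 19355 bp away on the same strand, had 92.9 and 89.3%. Unassigned Y sequence held a copy (Y_random, 3906170 to 3906518, plus strand) with 65.4 and 54.7%. Its nearest locus, an IAPLTR2_Mm copy 502858 bp away, had 86.5 and 79.3%. On chromosome 5 (41786522 to 41786886, minus strand) a copy had 67.3 and 60.0%, and here the nearest locus, an IAPLTR1a_Mm copy 577353 bp away, was low as well, at 64.6 and 59.3%. Among the 5 copies lowest in ES cells, the nearest locus had 86.5% or more in ES cells for all but the chromosome 5 copy. In Neuro2A cells these nearest loci ran from 59.3 to 89.7%. Their distances were 19355 to 577353 bp.

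At the other end, the 5 copies with the highest level in whichever line was lower reached at least 92.0% in both. A copy on chromosome 9 (119771469 to 119771837, minus strand) had 93.7% in ES and 93.4% in Neuro2A cells. One on chromosome 1 (113150197 to 113150563, minus strand) had 93.0 and 93.6%, another on that chromosome (27243739 to 27244105, plus strand) had 92.7 and 92.0%, and one on chromosome 6 (96102767 to 96103115, minus strand) had 92.0 and 96.2%. Another of the 5 was a chromosome 18 copy (46603201 to 46603636, plus strand) at 92.5 and 93.3%. All 5 exceeded the upper quartile of Neuro2A cells (88.3%), and 3 of them were lower in ES than in Neuro2A cells.

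Across the 550 copies, the ES and Neuro2A levels had a Spearman's rho of 0.39 and a Pearson's r of 0.57. Among the 509 copies at 80% or above in both lines both came to 0.27. Each point is 1 locus, all points share the same 2 libraries, and the coefficients are descriptions only.

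The closest class by name is the paired IAPLTR1_Mm copies, 181 pairs with a candidate 5′ LTR (the upstream member) and a candidate 3′ LTR (the downstream one). Candidate 3′ LTRs had a median of 92.2% in ES and 87.0% in Neuro2A cells, with SDs over loci of 3.75 and 4.72. Unpaired copies had SDs of 4.04 and 5.18 around medians of 91.9 and 86.8%. Candidate 5′ LTRs had medians of 89.4 and 82.8% with SDs of 8.83 and 21.9. Their percentile 5 in Neuro2A cells was 27.7%, against 77.9% for unpaired copies and 76.4% for candidate 3′ LTRs. The 5′ copies also reached higher, with 26 of 181 (14.4%) at 95% or above in Neuro2A cells, against 5 of 550 (0.91%) unpaired copies and 0 of 181 candidate 3′ LTRs, with 4.88% of all loci there. In centre and in spread, the unpaired values lay beside those of candidate 3′ LTRs. These differences between classes have no test. The libraries were enriched for junctions of LTRs with flanking genome. Whether the levels of 5′, 3′ and unpaired LTRs rest on the same CpGs was not tested.

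**Figure D2:**
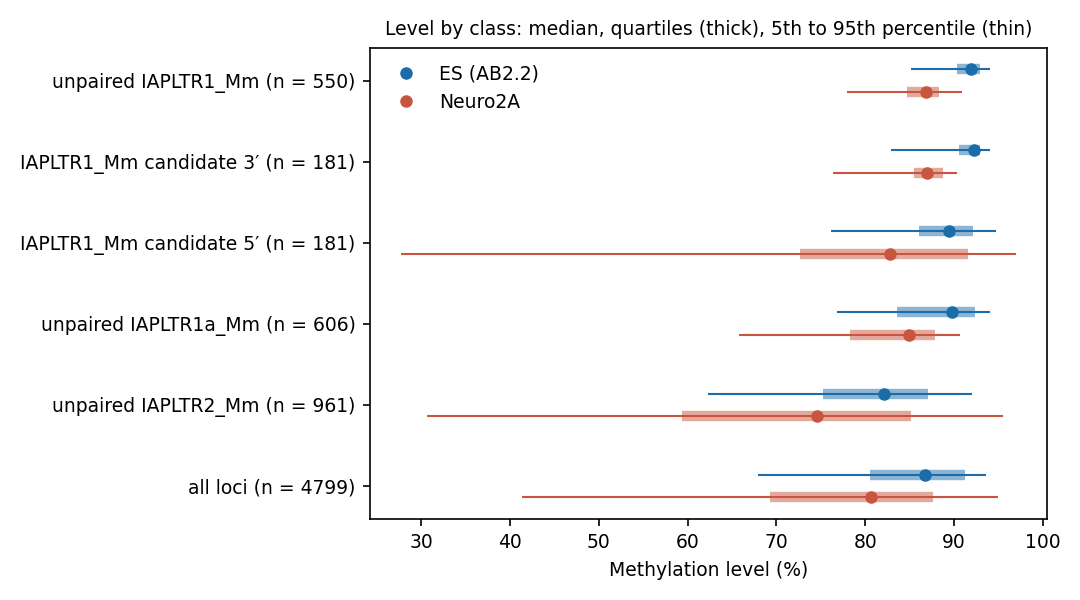
Methylation level (%) in ES and Neuro2A cells for 6 classes of loci; points are medians over loci, thick bars the quartiles and thin lines percentiles 5 to 95. Unpaired IAPLTR1_Mm copies and IAPLTR1_Mm candidate 3′ LTRs have narrow bars in both lines, while the Neuro2A line of candidate 5′ LTRs runs from 27.7 to 97.0%.

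Unpaired copies of the related subfamily IAPLTR1a_Mm (606 loci) had medians of 89.8 and 84.95%, with widths of the middle 50% of 8.68 and 9.47 points. Their median difference of 4.9 points was close to the 5.0 points of unpaired IAPLTR1_Mm copies, yet 192 of 606 (31.7%) were under 80% in Neuro2A cells, against 39 of 550 (7.09%). Unpaired IAPLTR2_Mm copies (961 loci) had medians of 82.1 and 74.6% and a median difference of 7.7 points. In that class 223 copies (23.2%) were higher in ES cells by 20 points or more, against 3 of the 550 and 14.9% of all loci. Such differences were also few among unpaired IAPLTR1a_Mm copies (16 of 606, 2.64%) and absent among IAPLTR1_Mm candidate 3′ LTRs (0 of 181). Their scarcity is thus not particular to the unpaired IAPLTR1_Mm copies. Centring set these median differences to -1.2 points for IAPLTR1a_Mm and 1.6 points for IAPLTR2_Mm.

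LTR lengths fell into steps. The median length was 366 bp, the range without the 98 bp fragment 335 to 514 bp, and the most frequent lengths were 352 bp (56 copies), 337 bp (42 copies), and 353 and 367 bp (35 copies each). Within each step the modal lengths were 337, 352, 367, 383 and 397 bp, which are 15, 15, 16 and 14 bp apart. No copy measured 343 to 346, 360 to 361, 375 to 376 or 409 to 410 bp. Other lengths were absent too, among them 340 to 341 and 424 to 426 bp and the single lengths 348, 363 and 396 bp. The modal lengths were picked out after the data were seen, as those with at least 9 copies and no more frequent length within 7 bp. The absent lengths named were likewise chosen from those seen.

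Median levels changed little with length, and the SD over loci was smaller among copies of 400 bp and over. Copies of 300 to under 350 bp (64 loci) had medians of 91.95% in ES and 86.8% in Neuro2A cells, and those of 350 to under 400 bp (395 loci) 91.7 and 86.7%. Copies of 400 bp and over (90 loci) had 92.4 and 87.25%. In order of length, the ES SD over loci was 4.91, 3.78 and 1.41, and the Neuro2A SD was 5.92, 5.46 and 2.73. The middle 50% differed less, with widths of 2.3, 3.15 and 1.775 points in ES and 3.825, 3.7 and 3.275 points in Neuro2A cells. The lowest ES level was 65.4, 64.0 and 87.2%. No copy of 400 bp or more was thus under 80% in ES cells (exact interval over loci up to 4.02%), against 2.18% of all 550. In Neuro2A cells 2 of the 90 were under 80%, against 7.09% of all 550. Median differences were 4.85 points (interval 4.1 to 5.7), 4.9 (4.6 to 5.2) and 5.7 (5.0 to 6.2). These intervals overlap. Spearman's rho of length was 0.15 with the ES level, 0.07 with the Neuro2A level and 0.06 with the difference.

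The 3 longest copies measured 514 bp (chromosome 4, 39899792 to 39900305), 509 bp (chromosome 14, 120355305 to 120355813) and 502 bp (chromosome 7, 86481952 to 86482453), all on the minus strand. Their ES levels were 93.9, 90.7 and 93.6%, and their Neuro2A levels 86.3, 81.8 and 85.8%. After the 98 bp fragment, the shortest copies by the naming rule had 335 bp. On chromosome 10 (89787374 to 89787708, minus strand) the levels were 91.4 and 84.6%, and on chromosome 14 (54094846 to 54095180, minus strand) 90.2 and 85.1%.

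**Figure D3:**
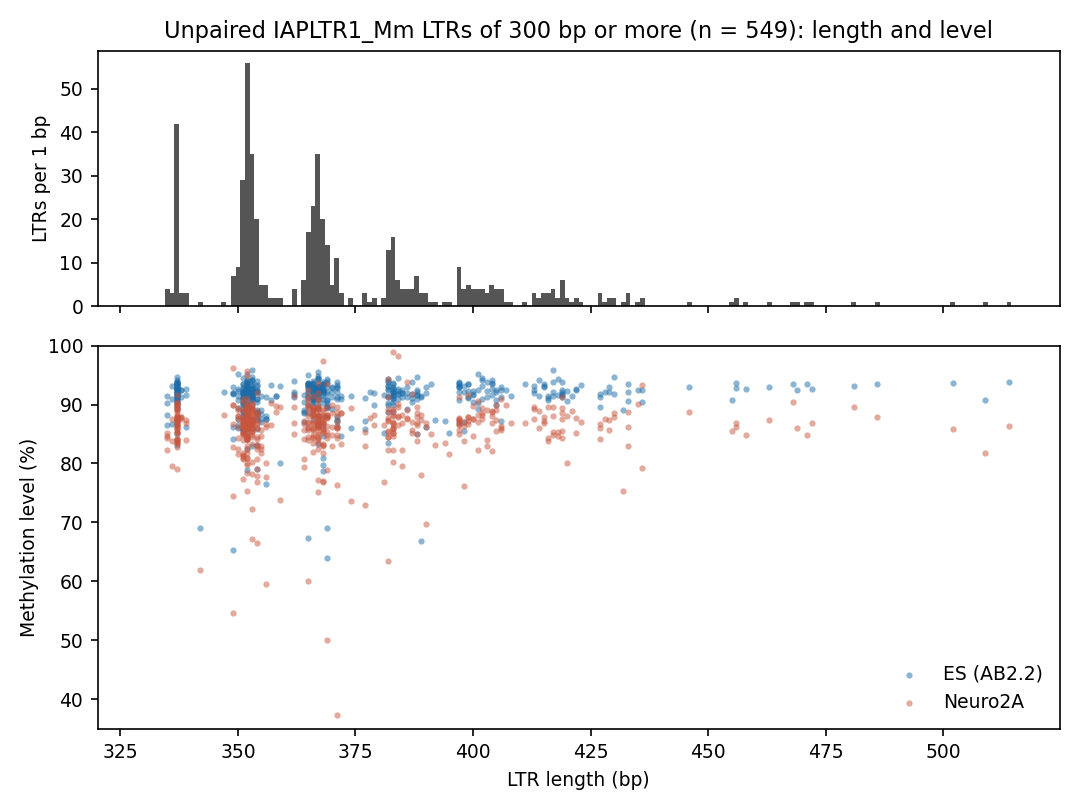
Lengths of the 549 unpaired IAPLTR1_Mm LTRs of 300 bp or more (top, LTRs per 1 bp of length) and their methylation level in each library (bottom, %, against length in bp). Lengths cluster at 337, 352 and 367 bp and more loosely beyond, and the points under 70% lie among copies shorter than 400 bp.

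The strands had similar centres. The 261 plus-strand copies had medians of 91.8 and 86.7%, the 289 minus-strand copies 91.9 and 86.9%, and the median difference was 5.0 points on each (intervals 4.6 to 5.4 and 4.7 to 5.3). Extremes were less even. Levels under 80% in ES cells were found at 9 minus-strand and 3 plus-strand copies, and in Neuro2A cells at 19 and 20. The SD of the difference was 5.20 points on the minus strand and 3.25 on the plus strand, with the extreme copies of chromosome 2 and the X on the minus strand.

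Most of these copies stood far from any other measured IAP LTR. The median distance to the nearest other locus of any subfamily was 255225 bp, 534 copies had none within 10 kb, and 395 had none within 100 kb. Over all loci, where pairs are included, the median distance was 49199 bp. Since the pair rule removes copies with a close partner, a larger distance than over all loci is partly built in. Other unpaired copies had median distances of 195205 bp (IAPLTR1a_Mm), 183447 bp (IAPLTR2_Mm), 170388 bp (IAPLTR2a) and 164869 bp (IAPLTR2b). Among the 550 copies, the median difference was 5.0 points for the 144 at 8 to 100 kb (interval 4.6 to 5.7). It was 4.95 points for the 354 copies at 100 kb to 1 Mb (4.6 to 5.3) and 4.9 points for the 41 copies beyond 1 Mb (3.8 to 5.3). Spearman's rho of distance was -0.01 with the ES level, -0.03 with the Neuro2A level and -0.02 with the difference. The 10 copies at 1 to 8 kb, too few for a class summary by themselves, had a median difference of 6.55 points and a range of 3.5 to 50.5 points. Of these, 3 were higher in ES cells by 10 points or more (30.0%, interval over loci 6.67 to 65.2). The share was 5.82% of all 550 copies and 32.3% of all loci. Neuro2A levels of the 10 copies ran from 37.3 to 88.1% (SD 15.4), while the 41 copies beyond 1 Mb ran from 73.7 to 93.3% (SD 3.92). Beyond 8 kb the class medians were close. The wide SD at 1 to 8 kb includes the copy at 37.3%, with the others between 75.3 and 88.1%. The middle 50% of Neuro2A levels there was 3.575 points wide. In the farther classes, in order of distance, it was 3.6, 3.5 and 5.1 points wide. Medians were also close whichever subfamily the nearest locus had, with ES medians of 91.7 to 92.05% and Neuro2A medians of 86.55 to 87.0% over the 5 subfamilies that were nearest to more than 1 copy.

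Another locus lay within 8 kb of 11 copies. That locus was IAPLTR2_Mm in 6 cases, IAPLTR2a in 4 and IAPLTR1a_Mm in 1, and it lay on the same strand in 5. The copy exceeded its neighbour in ES cells in 10 of the 11 and in Neuro2A cells in 8 of the 11. Of all 550 copies, 91.3% exceeded the median of all loci in ES cells and 92.0% in Neuro2A cells. That median is another measure than the nearest locus, and how often all 550 copies exceeded their own nearest locus was not counted. The closest couple was on the X chromosome, where a 417 bp copy (51530378 to 51530794, minus strand) lay 196 bp from an IAPLTR2_Mm copy on the opposite strand. The copy had 93.8% in ES and 88.1% in Neuro2A cells, and its neighbour 81.2 and 44.0%. At 196 bp apart, the LTRs thus differed by 12.6 points in ES cells and by 44.1 points in Neuro2A cells.

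A minus-strand copy of chromosome 2 (107434210 to 107434563) 2061 bp from an IAPLTR2_Mm locus had 92.3 and 86.1%, and the neighbour 84.2 and 79.1%. A copy on the X chromosome (139607148 to 139607484, minus strand) lay 2167 bp from an IAPLTR2_Mm locus and had 91.1 and 84.2%, against 82.4 and 77.6%. The most isolated copy, on chromosome 5 (129948316 to 129948748, plus strand), was 2503410 bp from the nearest locus and had 90.6 and 88.8%. A chromosome 6 copy (87352093 to 87352442, minus strand), 2248805 bp from another locus, had 86.1 and 89.0%. A chromosome 9 copy (44173312 to 44173779, minus strand), 2230101 bp from another locus, had 93.5 and 90.4%. These 6 copies do not stand for their classes, since the lowest Neuro2A level of the set (37.3%) belonged to a copy with a neighbour at 4474 bp.

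**Figure D4:**
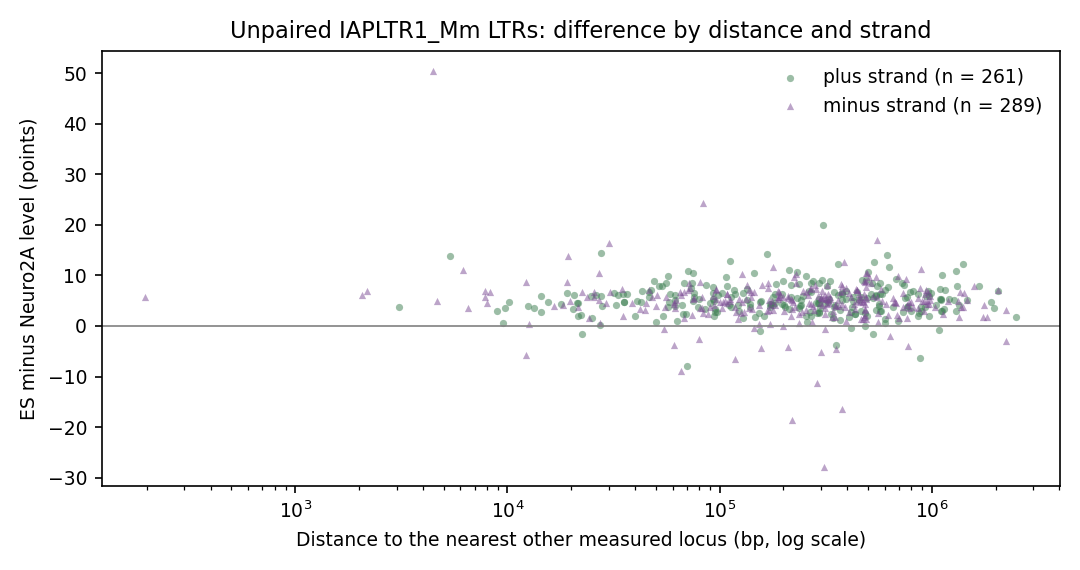
ES minus Neuro2A level (points) of the 550 unpaired IAPLTR1_Mm LTRs against the distance to the nearest other measured locus (bp, log scale), with plus-strand copies as circles and minus-strand copies as triangles. Most points lie in a band around the median of 5.0 points (a band around -1.1 points once the libraries are centred), and the highest point, at 50.5 points, is the chromosome 2 copy with a neighbour at 4474 bp.

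The pattern was similar from chromosome to chromosome. Over the 15 chromosomes with 20 or more copies, the median ES level ranged from 91.3 to 92.4%, the median Neuro2A level from 84.8 to 87.3% and the median difference from 4.45 to 5.9 points. The lowest median differences were on chromosome 16 (26 copies, 4.45 points) and chromosome 11 (26 copies, 4.65 points), and the highest on chromosome 6 (23 copies, 5.9 points) and chromosome 7 (32 copies, 5.75 points). The X chromosome held 33 copies with medians of 91.6 and 87.1% and a median difference of 4.7 points, inside that range. The 10 copies on Y and unassigned Y sequence had medians of 90.5 and 86.5%. Chromosome 3, with 39 copies, held 4 of the 12 copies under 80% in ES cells and 7 of the 39 under 80% in Neuro2A cells. It was singled out after its values were seen.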

How the data were processed

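One library each from AB2.2 ES cells and Neuro2A cells was analysed. Per the labels' protocols, sonicated DNA was ligated to an adaptor, bisulfite-treated, amplified to enrich junctions of IAP LTRs with flanking genome, and size-selected. Incomplete bisulfite conversion raises a measured level. Per the file headers, the authors deposited scores on mm9, each the methylation fraction of an LTR multiplied by 1000. It was divided by 10 to give percent. The submitters' processing notes name Bowtie2 but not its role or version. Which program called methylation, how reads were filtered and where reads matching more than 1 copy went is not given in the sources used here, so whether near-identical copies share reads is unknown. No read numbers accompany the scores.

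Loci were matched by name over both libraries (4799 in each, none missing) and placed by the name, written 1-based. In the ES library, 1 locus had position columns unlike its name. No mm9 sequence or annotation was used here, so no gene context is given. The members, lists and comparisons were chosen with earlier results of these data known. Loci are named by a rule: the 10 largest ES and 5 largest Neuro2A excesses, the 5 lowest in each line, the 5 highest in the lower of both lines, the 3 longest, shortest, closest and farthest. It gave 33 loci. Medians carry exact binomial intervals and shares exact Clopper-Pearson intervals, all 95%, over loci. Scripts (Python 3.11.15, pandas 2.3.3, scipy 1.17.1) were tested on simulated levels and positions. Alternatives were autosomes only, loci at 0 left out, other pair rules, isolated copies, LTRs of 300 bp or more, 1 copy per 100 kb, means, centring and other limits.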

Additional observations from a re-analysis of the deposited data

How the results depend on the processing

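No paired analysis was possible because there is a single library per line. Of 93 recomputed values, 64 stayed within their interval over loci (counts within 1.5 times), 18 moved further and 11 reversed. The 64 include every value from the settings, named below, that left the same 550 copies. Those values could not change and are no check. All reversals came from centring each library on its median over all loci, which subtracts 6.1 points by construction. The median difference then was -1.1 points for all 550 copies, for each strand, for copies 8 to 100 kb from another locus and for paired IAPLTR1_Mm loci. It was -1.15 points at 100 kb to 1 Mb, -1.2 beyond 1 Mb, -1.25, -1.2 and -0.4 for the length classes in ascending order, and -1.2 for unpaired IAPLTR1a_Mm. Centring also gave 1.6 points for unpaired IAPLTR2_Mm, 32.5% of copies higher in ES cells, 1 copy higher in ES cells by 20 points and 3 higher in Neuro2A cells. Means in place of medians gave levels of 90.8% in ES and 85.9% in Neuro2A cells, and differences of 7.89 points for paired IAPLTR1_Mm, 5.87 for unpaired IAPLTR1a_Mm and 9.93 for unpaired IAPLTR2_Mm loci. A high limit of 90% gave 78.0% of copies in ES and 8.18% in Neuro2A cells, and a limit of 70% gave 98.2% in Neuro2A cells. Difference limits of 10 and 40 points gave 32 and 1 copies higher in ES and 4 and 0 in Neuro2A cells. The 1 copy higher in Neuro2A cells by 20 points is the 98 bp fragment on the X, so the count was 0 on autosomes and 0 among LTRs of 300 bp or more. A pair rule of 500 to 10000 bp, pairs across IAPLTR1_Mm and IAPLTR1a_Mm, and leaving out loci at 0 each left the same 550 copies. Depth is unknown, so single copies have no stated precision.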

Other observations

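The limits of the pair rule fall in an empty stretch of gap sizes. Among consecutive IAPLTR1_Mm loci of one strand, none lay closer than 1000 bp, and the smallest gap inside the limits was 1537 bp, on chromosome 3. There the candidate 5′ LTR (66831865 to 66832215, plus strand) had 88.2% in ES and 97.1% in Neuro2A cells, and the candidate 3′ LTR (66833753 to 66834103) 93.1 and 88.0%. The largest gap inside was 7637 bp, on chromosome 1, between a candidate 3′ LTR (151353422 to 151353772, minus strand) at 87.6 and 83.0% and a candidate 5′ LTR (151361410 to 151361779) at 90.1 and 83.7%. Just outside, at 12222 bp, stood a couple of unpaired copies on chromosome 2. The downstream one (131743768 to 131744149, minus strand) had 93.1% in ES and 84.5% in Neuro2A cells, and the upstream one (131756372 to 131756753) had 88.7 and 94.4%. The latter is among the 27 unpaired copies that were higher in Neuro2A cells.

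Consecutive unpaired IAPLTR1_Mm copies within 1 Mb of each other numbered 121 couples. Across them Spearman's rho was -0.25 for the ES level, 0.07 for the Neuro2A level and -0.07 for the difference, while Pearson's r was 0.18, 0.23 and 0.0013. Rank and linear coefficients of the ES level differ in sign, a copy can belong to 2 couples, and these values are descriptions only. One such couple, chosen after its values were seen, lies on chromosome 4, where a minus-strand copy (97941286 to 97941637) and a plus-strand copy (98121101 to 98121452) had 89.1 and 86.9% in ES and 95.7 and 94.9% in Neuro2A cells. Both were higher in Neuro2A cells, as were 27 of the 550.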
